A study of Mus musculus with 12 samples.

Results

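Arc, Homer1, Bdnf, Nptx2, Dusp1 and Ptgs2 are genes that neurons switch on after synaptic activity and whose products act at synapses, on kinase signalling or on prostaglandin synthesis. All array probes whose transcript accession maps to one of these 6 symbols were taken, which gave 10 probes among the 41174 gene probes and 6 of the 16358 named genes. Arc, Nptx2 and Dusp1 each had 1 probe, Bdnf and Ptgs2 each had 2, and Homer1 had 3. Within these genes the probes were taken by name alone, with no measured value. The genes themselves were chosen with earlier results of these data known.

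The series compared brain tissue of mice without the cytokine interleukin-18 (IL-18) with that of wild-type mice. There were 12 one-colour arrays, 1 for each of 6 regions and 2 genotypes. The regions were hippocampus, amygdala, hypothalamus, striatum, prefrontal cortex and olfactory bulb, each cut from coronal slices of 1 mm. The knockout group (KO) was IL-18-/- and the control group (WT) was wild type. Both were male littermates of the F2 generation from IL-18-/- males crossed with C57BL/6J females, given as strain C57BL/6, killed at the age of 12 weeks in the early afternoon under diethyl ether and perfused with cold saline. No behavioural or drug treatment is given for any group, so the levels are those of untreated mice after anaesthesia. Each array held an equal pool of RNA from 5 mice, and the labels do not say whether 1 set of mice served all regions. The prefrontal cortex slice is placed in front of bregma in the series text and behind it in the sample labels.

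Synaptic activity raises calcium in neurons, which through kinases such as CaMK and ERK activates transcription factors on promoters that are ready to fire. The first genes to respond encode transcription factors such as Fos and Egr1, and alongside them effector genes whose products act directly. Arc removes AMPA receptors from synapses, a short form of Homer1 uncouples metabotropic glutamate receptors from their scaffold, Bdnf is a secreted neurotrophin, Nptx2 gathers AMPA receptors, Dusp1 switches off MAP kinases, and Ptgs2, also called cyclooxygenase-2, makes prostaglandin precursors.

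Levels are log2 processed signals minus the 75th percentile of the array, so 0 stands for a spot at that percentile and a step of 1 for a 2-fold change. A level says nothing about 1 probe relative to another. That percentile was 208 on striatum WT and 272 on striatum KO, and lay between 502 and 768 on the other 10 arrays. Il18 was lower in KO than in WT in 6 of 6 regions, by a fitted -4.36 ± 0.16 (SE, limma with Benjamini-Hochberg adjustment, adjusted p = 0.000616). The array labelled amygdala WT lay nearly as close to the hypothalamus WT array (median absolute difference 0.096) as the hypothalamus arrays lay to each other (0.095), and was farther from amygdala KO (0.24). Of the hypothalamus markers, 14 of 15 were well above background on each of the 4 arrays, with a median level of 1.58 on the array labelled amygdala WT, 1.29 and 1.39 on hypothalamus WT and KO, and -1.64 on amygdala KO. Regional calls of the 10 probes are therefore also given without it, and most of their genotype means without the amygdala pair. Results for lists of other genes, correlations and the regional values of Nptx2 and Dusp1 include that array. In the other regions the markers stood where the labels put them: striatum markers had medians of 2.94 and 2.89 on the striatum arrays and at most 0.33 elsewhere. A slide held the arrays of 1 region only, and a genotype always had the same position, so region and slide, and genotype and position, cannot be told apart. In bulk tissue, fewer cells of a type and less RNA per cell cannot be told apart either.

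The sequences at the starts of these genes were searched for the cAMP response element (CRE), which is bound by CREB, a factor activated by calcium signalling. A RefSeq table of promoters (build GRCm38.p6), each running from 250 bases before a listed start to 50 after it, held 11 promoters for 4 of the 6 genes: Bdnf, Dusp1, Homer1 and Ptgs2. The CRE half-site TGACG was searched on both strands. It occurs in 20.8% of all 32851 promoters of the table, and the full CRE, TGACGTCA, in 1.79%. The TATA letters TATAAA (13.6% of promoters) and the CArG box of serum response factor (1.63%) were in none of the 11 windows. Below are the windows with a half-site before the start, 5′ to 3′ in the direction of the gene, with half-sites in capitals.

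Dusp1 (chr17:26508423-26508722, minus strand): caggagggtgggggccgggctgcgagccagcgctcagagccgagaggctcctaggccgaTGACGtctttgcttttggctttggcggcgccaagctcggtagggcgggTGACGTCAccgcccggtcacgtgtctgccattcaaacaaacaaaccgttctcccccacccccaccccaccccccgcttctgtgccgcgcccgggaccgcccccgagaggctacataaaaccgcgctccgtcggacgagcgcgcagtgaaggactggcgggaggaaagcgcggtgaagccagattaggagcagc

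Homer1 (chr13:93303507-93303806, plus strand): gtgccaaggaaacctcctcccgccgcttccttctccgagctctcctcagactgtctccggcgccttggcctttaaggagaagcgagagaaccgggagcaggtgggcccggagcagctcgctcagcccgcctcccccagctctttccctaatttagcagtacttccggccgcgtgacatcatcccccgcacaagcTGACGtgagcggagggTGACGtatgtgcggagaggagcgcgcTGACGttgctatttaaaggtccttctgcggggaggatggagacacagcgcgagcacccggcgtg

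Bdnf, promoter 3 of 7 in the table (chr2:109692186-109692485, plus strand): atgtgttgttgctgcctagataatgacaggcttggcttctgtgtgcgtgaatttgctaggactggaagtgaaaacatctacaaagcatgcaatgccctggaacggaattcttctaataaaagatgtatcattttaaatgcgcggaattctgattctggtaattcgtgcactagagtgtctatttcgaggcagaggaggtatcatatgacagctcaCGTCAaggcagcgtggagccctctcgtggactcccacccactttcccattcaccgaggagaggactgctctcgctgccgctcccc

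Dusp1 had 3 half-sites, of which 2, one on each strand, overlap as the full CRE whose first base is 143 bases before the start. The Homer1 window had 3 half-sites on the gene's strand, beginning 56, 40 and 14 bases before the start. Bdnf promoter 3 had 1 on the opposite strand, 35 bases before the start, and the other Bdnf windows had none. The single Ptgs2 window had 1 half-site, 13 bases after its start. A match is a run of letters and not a measured site, and the array data do not tell Bdnf promoters apart.

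Across regions the 6 genes did not follow a single map. Each region was compared with the other 5, taken as their mean, in 1 limma fit over all 31027 probes that were well above background on at least 6 arrays, with WT and KO as the 2 arrays of a region, and a call needed a difference of at least 1 on the log2 scale with an adjusted p below 0.05. All 10 probes entered that fit. In the hippocampus 4 of 10 probes were called higher, beside 4.72% of all probes, and in the prefrontal cortex 4 of 10, beside 2.76%. Both sets were the Bdnf and Ptgs2 probes, so each counts 2 genes. The 4 prefrontal cortex calls all ended with normexp, another background correction (Bdnf 0.75 and 0.74, Ptgs2 0.25 and 0.20), and of the hippocampus calls that of Ptgs2 A_51_P254855 did (0.85). The striatum had 4 of 10 called lower, again Bdnf and Ptgs2, beside 11.1%. For 3 of these 4 probes neither striatum reading was well above background, and with normexp both Ptgs2 values turned above the other regions, so these calls give no level for the striatum. It had 1 called higher, a Homer1 probe, beside 12.3%, a call that normexp and median scaling ended. In the olfactory bulb 1 probe was called higher, Arc, beside 6.48%, and 3 lower, A_51_P261991 of Bdnf and both Ptgs2 probes, beside 5.42%. Both Ptgs2 calls there ended with normexp (-0.71 for A_52_P224760 and -0.62 for A_51_P254855). Neither Ptgs2 probe was well above background on the olfactory bulb KO array. Arc was also the 1 probe called lower in the amygdala, beside 4.65%, and in the hypothalamus, beside 1.48%. In all 19 of 60 comparisons were called, and 17 without the array labelled amygdala WT; lost were the prefrontal cortex calls of Bdnf A_51_P261991 and Ptgs2 A_51_P254855 (0.98) and the striatum call of Homer1, and gained was Bdnf A_52_P384100 in the amygdala. Readings of Bdnf and Ptgs2 that were not well above background in the striatum enter the mean that other regions are set against, so pairs of regions are also given. In those pairs the call is an adjusted p under 0.05 alone, and most regions differ at many probes, so the share called among all probes is given where a pair is first called.

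**Figure D1:**
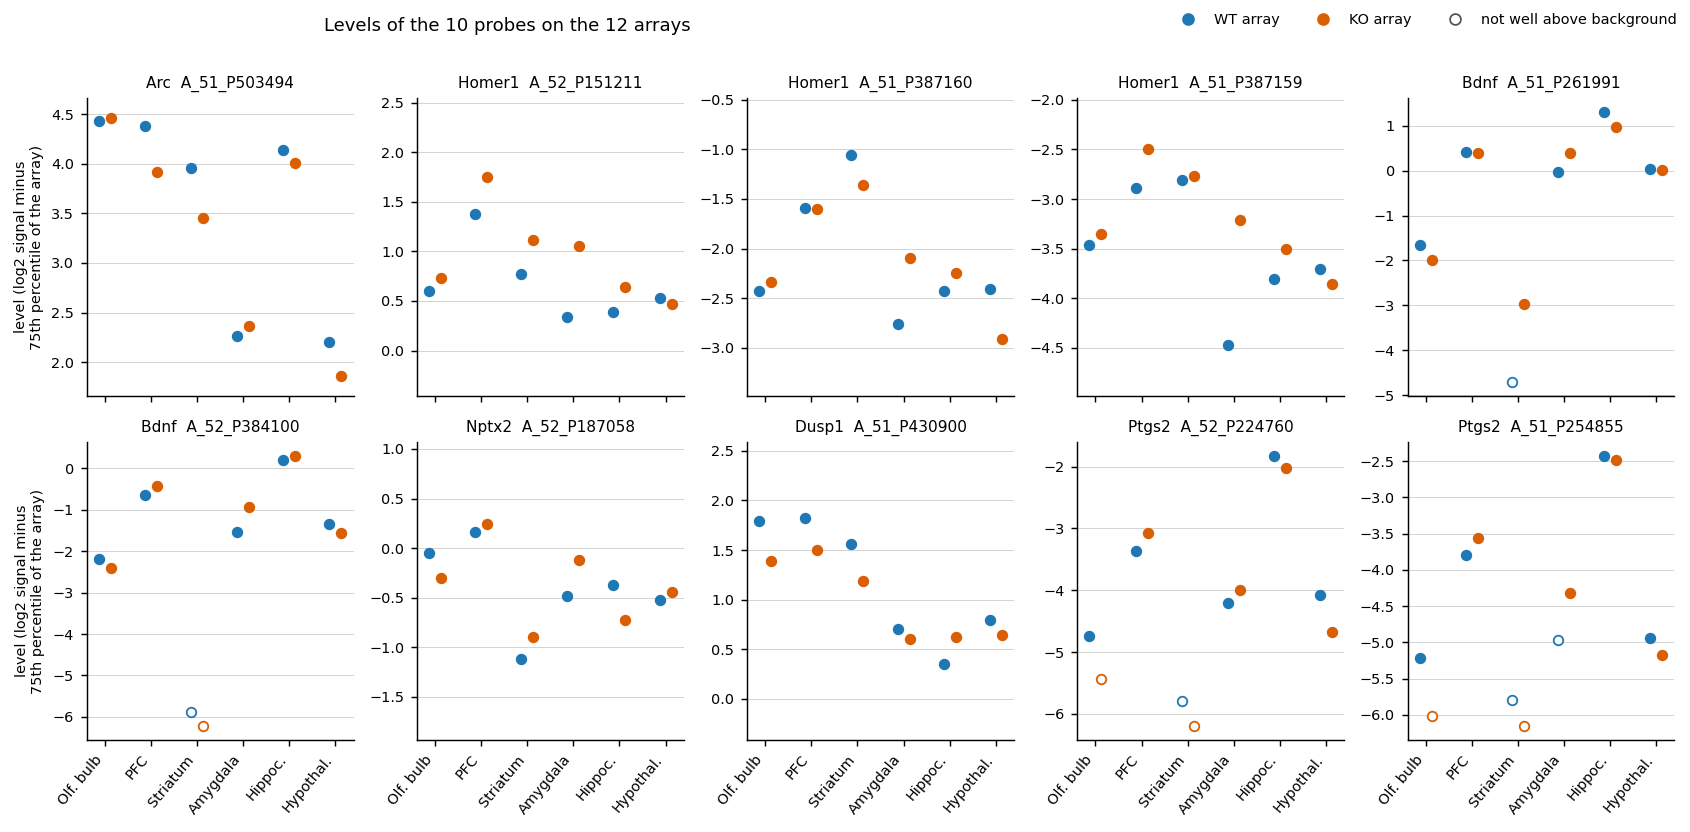
Level of each of the 10 probes (vertical axis, log2 signal minus the 75th percentile of the array, a separate range for each panel) on the WT (blue) and KO (orange) array of each region; open circles were not well above background. Arc was lowest on the amygdala and hypothalamus arrays, between 1.86 and 2.36, while Bdnf and Ptgs2 were highest in the hippocampus and had open circles in the striatum.

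Arc encodes a cytoskeletal protein that drives AMPA receptor endocytosis and whose mRNA travels into active dendrites. Its levels were 4.44 (WT) and 4.46 (KO) in the olfactory bulb, 4.38 and 3.92 in the prefrontal cortex, and 4.14 and 4.005 in the hippocampus. The striatum arrays read 3.96 and 3.45, those labelled amygdala 2.26 and 2.36, and the hypothalamus arrays 2.21 and 1.86. The 8 arrays of the first 4 regions all lay above the 4 of the last pair of regions. This split was drawn from the Arc values themselves, and the share of all probes with such a split was not counted. Neighbours among olfactory bulb, prefrontal cortex, hippocampus and striatum were not separated (adjusted p = 0.185, 0.77 and 0.0988 in that order). The step from striatum down to amygdala was 1.39 ± 0.17 (adjusted p = 0.000366), where 66.5% of all probes were called. With the amygdala KO array alone it was 1.20 ± 0.19 (adjusted p = 0.00244), beside 62.9%. Amygdala and hypothalamus differed by 0.27 (adjusted p = 0.675), or by 0.47 with the KO array alone (adjusted p = 0.236). Against the mean of the others, Arc was at -1.37 ± 0.13 in the amygdala (adjusted p = 0.000987), or -1.18 with the KO array alone (adjusted p = 0.00726), and at -1.70 ± 0.13 in the hypothalamus (adjusted p = 0.00078). The olfactory bulb excess over the other regions was 1.19 ± 0.13 and fell to 0.96 without both amygdala arrays, under the size needed for a call.

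Homer1 encodes a postsynaptic scaffold protein. The table of transcripts lists 5 Homer1 forms, and the probes name 2 accessions; the sources used here do not say which is the short, activity-induced form. Probe A_52_P151211, alone on its accession, read 1.38 (WT) and 1.75 (KO) in the prefrontal cortex, 0.77 and 1.11 in the striatum, 0.34 and 1.05 on the amygdala arrays, 0.60 and 0.73 in the olfactory bulb, 0.39 and 0.64 in the hippocampus and 0.53 and 0.47 in the hypothalamus. The prefrontal cortex arrays were the highest pair, above every array of the other regions, and the share of all probes with such a gap was not counted. Its step to the next region, the striatum, was 0.62 ± 0.17 (adjusted p = 0.0162, beside 59.3% of probes called), and the neighbours below the striatum were not separated, with adjusted p from 0.24 to 0.965. On the other accession, A_51_P387160 was instead highest in the striatum, at -1.06 (WT) and -1.36 (KO), ahead of the prefrontal cortex at -1.59 and -1.60, and its other 8 arrays lay between -2.91 and -2.10. The step from striatum to prefrontal cortex was 0.38 and not called (adjusted p = 0.226). Its striatum excess over the mean of the other regions was 1.07 ± 0.20 (adjusted p = 0.00226). Without the array labelled amygdala WT that excess was 0.995 (adjusted p = 0.00129), just under the size for a call, as it was with median scaling (0.95) and normexp (0.99). The third probe, A_51_P387159, ran from -4.47 on the array labelled amygdala WT to -2.50 on prefrontal cortex KO. None of its neighbouring regions was separated in the fit, with adjusted p from 0.12 to 0.955.

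Bdnf, a growth factor of neurons, was highest in the hippocampus and near or under background in the striatum. Probe A_51_P261991, printed in 10 spots of which 8 to 10 were kept per array, read 1.31 (WT) and 0.97 (KO) in the hippocampus, 0.42 and 0.39 in the prefrontal cortex, -0.027 and 0.40 on the amygdala arrays, 0.033 and 0.017 in the hypothalamus and -1.64 and -1.99 in the olfactory bulb. In the striatum it read -4.71 on WT, where 0 of 10 spots were well above background, and -2.97 on KO, where 10 of 10 were. Among regions with both arrays well above background the olfactory bulb was the lowest, 1.84 ± 0.47 below the hypothalamus (adjusted p = 0.018, beside 46.5%), while the 4 regions above it were not separated from their neighbours (adjusted p = 0.308, 0.768 and 0.915). The second probe, A_52_P384100, gave the regions in the same order, from 0.21 and 0.30 in the hippocampus to -2.18 and -2.41 in the olfactory bulb. With its single spot the hippocampus exceeded the prefrontal cortex by 0.80 ± 0.23 (adjusted p = 0.0476, beside 21.0%), a call that ended with median scaling (0.59, adjusted p = 0.163) and with no filter on dim probes (adjusted p = 0.0719). On both striatum arrays this probe was not well above background. A floor for such readings was taken, on each dim array, as the lowest signal among probes well above background or the probe's own, whichever was higher. Against that floor Bdnf was at least 18.8-fold higher in the hippocampus than in the striatum and at least 10.8-fold higher in the prefrontal cortex. The limma tests of these pairs used the measured readings and not the floor (adjusted p = 9.95e-06, beside 59.8%, and 1.67e-05). With normexp this probe was at 1.62 in the hippocampus, 0.74 in the prefrontal cortex and -1.44 in the striatum against the others. Both differences are then smaller than these bounds, which hold for the processed signal only. The floors of the striatum arrays, -3.78 and -4.18, were the highest of the 12, since their signals were the dimmest. Without the array labelled amygdala WT, the prefrontal cortex call of A_51_P261991 was lost (1.24, adjusted p = 0.0609). The first was also lost with no filter on dim probes (adjusted p = 0.0541). That of A_52_P384100 was 1.54 without the array (adjusted p = 0.000672) and fell under the size for a call with normexp (0.74). For this probe the amygdala KO array was then called higher than the other regions (1.14, adjusted p = 0.00852).

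Ptgs2 encodes the inducible cyclooxygenase, which in the brain is made by excitatory neurons. Probe A_52_P224760 read -1.83 (WT) and -2.01 (KO) in the hippocampus, -3.36 and -3.07 in the prefrontal cortex, -4.20 and -4.00 on the amygdala arrays and -4.08 and -4.67 in the hypothalamus. On olfactory bulb arrays it read -4.75 in WT and was not well above background in KO, and it was not well above background on either striatum array. The hippocampus arrays stood above all others: they exceeded the prefrontal cortex by 1.29 ± 0.25 (adjusted p = 0.0137). The probe with 10 spots, A_51_P254855, also put the hippocampus first, and 1.22 ± 0.31 above the prefrontal cortex (adjusted p = 0.032). That second step lost its call with median scaling (1.02, adjusted p = 0.0709) and with quantile normalization (1.02, adjusted p = 0.0575). Against the floor of the processed signals, hippocampus exceeded striatum at least 4.17-fold by the first probe and at least 2.87-fold by the second. The limma tests of these pairs used the measured readings and not the floor (adjusted p = 4.78e-05 and 0.000139). With normexp the hippocampus stood 1.07 and 0.85 above the mean of the others, and the striatum 0.34 and 0.51. These bounds therefore hold for the processed signal only. Prefrontal cortex and amygdala were separated by the first probe (0.89 ± 0.25, adjusted p = 0.0414, beside 26.0%) and not by the second (0.96 ± 0.31, adjusted p = 0.0582). With the amygdala KO array alone the first difference was 0.63 (adjusted p = 0.19, beside 16.1%), and it also lost its call with median scaling (0.74) and quantile normalization (0.64). With normexp the striatum reading of Ptgs2 turned above the mean of the other regions (0.34 and 0.51), so no order is given among its dim regions.

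Nptx2, a secreted pentraxin that clusters AMPA receptors on interneurons, and Dusp1, a phosphatase of MAP kinases, did not reach the size for a call in any region. Nptx2 read 0.16 (WT) and 0.25 (KO) in the prefrontal cortex, -0.049 and -0.31 in the olfactory bulb, -0.48 and -0.12 on the amygdala arrays, -0.52 and -0.44 in the hypothalamus, -0.37 and -0.73 in the hippocampus and -1.11 and -0.89 in the striatum. The prefrontal cortex lay 0.70 ± 0.14 above the mean of the others (adjusted p = 0.00932) and the striatum 0.74 below it (-0.74 ± 0.14, adjusted p = 0.00256). No neighbours in its order were separated. Dusp1 could be parted into 2 sets of regions, a split drawn from its own values and not counted over all probes. It read 1.82 and 1.50 in the prefrontal cortex, 1.80 and 1.39 in the olfactory bulb and 1.56 and 1.19 in the striatum. On the other 6 arrays it lay between 0.35 and 0.79, below all of these. The step between the sets, striatum to hypothalamus, was 0.66 ± 0.17 (adjusted p = 0.0113, beside 61.8%), and no other neighbours were separated.

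Probes of the same gene were set against each other on the same array, which needs no scaling. Over the 12 arrays the Ptgs2 probes correlated at r = 0.983 and the Bdnf probes at 0.942, while the Homer1 probes of different accessions, A_52_P151211 and A_51_P387160, correlated at 0.687. The other pair across accessions, A_52_P151211 and A_51_P387159, correlated at 0.863, close to the pair within an accession (0.882). These are descriptions over arrays that share regions and, for Bdnf and Ptgs2, include dim readings. The Homer1 difference, A_51_P387160 minus A_52_P151211 and centred on its mean over the 12 arrays, was 1.09 on striatum WT and 0.44 on striatum KO and between -0.47 and 0.10 on the other 10. Set against the mean of the other regions, the striatum was higher by 0.92 ± 0.13 (adjusted p = 0.000644, over 5348 probe pairs). Without the array labelled amygdala WT this was 0.89 (adjusted p = 0.00148), and with normexp 0.95 (adjusted p = 3.24e-05). The other probe of that accession, A_51_P387159, was also higher against A_52_P151211 in the striatum, by 0.54 ± 0.14 (adjusted p = 0.0117). So in the striatum both probes of one Homer1 accession were high relative to the probe of the other, though neither difference reached the size of 1. The Ptgs2 pair, on 1 accession, was also higher there, from readings not well above background. It was 0.57 ± 0.12 (adjusted p = 0.00396), and 0.17 with normexp (adjusted p = 0.0813). The share of all pairs under 0.05 without a size limit was not counted. Whether transcript forms account for the Homer1 values was not tested. Only the Bdnf pair passed the size of 1 in the striatum (-1.17 ± 0.43, adjusted p = 0.0452), where 24.2% of all pairs did. That value rests on readings not well above background, was not called without the array labelled amygdala WT (adjusted p = 0.0564), and was 0.41 with normexp.

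**Figure D2:**
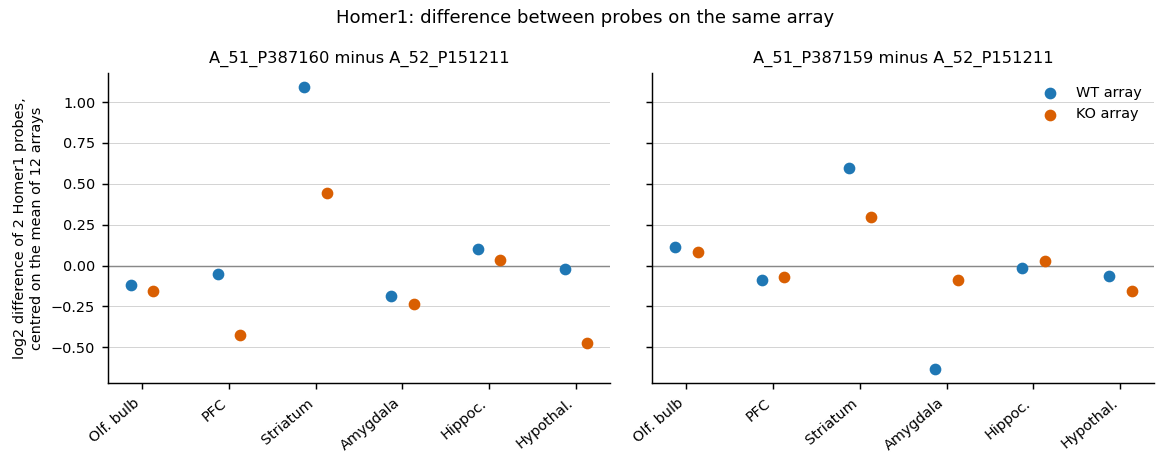
Within-array log2 difference between a Homer1 probe of 1 accession and A_52_P151211 of the other (vertical axis, centred on the mean of 12 arrays), by region, WT in blue and KO in orange. The striatum arrays were the highest in both panels, at 1.09 and 0.44 on the left and 0.60 and 0.30 on the right.

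Between genotypes, none of the 6 genes was called. KO minus WT was fitted across the 6 regions with region as a block, so its p-values rest on the spread between regions, and those are no separate samples if the pools share mice. Of the 10 probes 0 had an adjusted p under 0.05 with limma, beside 0.0451% of all probes, and 1 had an unadjusted p under 0.05, beside 25.1%. That 1 was Homer1 A_52_P151211, at 0.29 ± 0.098 (adjusted p = 0.134). It was higher in KO in 5 of 6 regions, by 0.14 in the olfactory bulb, 0.37 in the prefrontal cortex, 0.34 in the striatum, 0.71 in the amygdala pair and 0.25 in the hippocampus, and -0.054 in the hypothalamus. Without the amygdala pair its mean was 0.21. The probes of the other Homer1 accession averaged 0.021 ± 0.15 (A_51_P387160, adjusted p = 0.943) and 0.32 ± 0.17 (A_51_P387159, adjusted p = 0.291), the latter 0.14 without the amygdala pair.

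Arc was lower in KO in 4 of 6 regions, with a mean of -0.22 ± 0.097 (adjusted p = 0.211). The differences were -0.46 in the prefrontal cortex, -0.51 in the striatum, -0.34 in the hypothalamus and -0.13 in the hippocampus, and 0.021 in the olfactory bulb and 0.10 in the amygdala pair. Dusp1 was lower in 5 of 6 regions, with a mean of -0.18 ± 0.096 (adjusted p = 0.285). Its values ran from -0.40 in the olfactory bulb to 0.27 in the hippocampus, and with median scaling it was lower in 4 of 6. The slides of prefrontal cortex and hippocampus were scanned on 1 day and the other 4 on another. Dusp1 averaged -0.026 on the first day and -0.26 on the second, Arc -0.30 and -0.18, and Homer1 A_52_P151211 0.31 and 0.28.

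Nptx2 was higher in 4 regions and lower in 2, with a mean of 0.023 ± 0.10 (adjusted p = 0.911). The Bdnf probes averaged 0.24 ± 0.27 (A_51_P261991, adjusted p = 0.614) and 0.023 ± 0.13 (A_52_P384100, adjusted p = 0.933), and the first was -0.061 without the striatum. The Ptgs2 probes averaged -0.23 ± 0.15 (adjusted p = 0.356) and -0.097 ± 0.18 (adjusted p = 0.764). Both Ptgs2 probes were higher in KO in the prefrontal cortex, by 0.29 and 0.24, and their hypothalamus differences were -0.59 and -0.24. Without the amygdala pair the means were -0.28 for Arc, -0.20 for Dusp1, -0.044 for Nptx2, 0.20 and -0.097 for Bdnf and -0.32 and -0.25 for Ptgs2. Over all settings tried, the lowest adjusted p of any of these probes was 0.0761, for Homer1 A_52_P151211 with normexp. Pan-neuronal genes were split 5 higher and 5 lower with a median of -0.023. Of 9 microglia markers 7 were higher in KO, with a median of 0.22, beside 6911 of all 14062 named genes. At an unadjusted p under 0.05 with limma were 6 of these 9, beside 21.8% of all named genes. That count was 4 of 10 for astrocyte, 3 of 9 for oligodendrocyte and 3 of 10 for endothelium markers. It was 1 of 9 for choroid plexus markers and 1 of 10 for pan-neuronal genes. Median microglia levels were -0.38 to 0.35 on the WT arrays and -0.070 to 0.83 on the KO arrays; their part in these values was not tested.

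**Figure D3:**
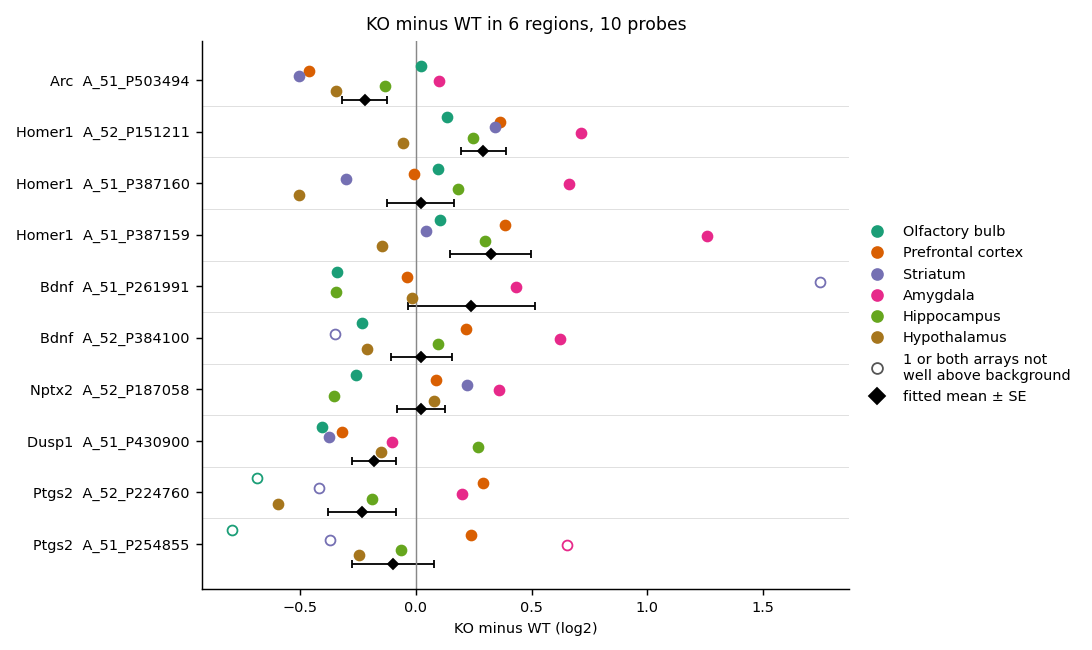
KO minus WT (horizontal axis, log2) for each probe, with 1 circle per region, open where at least 1 of the 2 arrays was not well above background, and the fitted mean with its SE as a black diamond. Homer1 A_52_P151211 was higher in KO in 5 of 6 regions and Dusp1 lower in 5 of 6, and the farthest circle is Bdnf A_51_P261991 in the striatum at 1.75.

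The difference between Homer1 probes was lower in KO in 6 of 6 regions. Of single probes, 18.4% had 1 direction in 6 of 6 regions, and the share among pairs was not counted. A_51_P387160 minus A_52_P151211 changed by -0.27 ± 0.098 between genotypes (adjusted p = 0.101), from -0.038 to -0.65 by region. None of the 4 probe pairs of these genes was called, beside 12.3% of all pairs. With normexp, where calls among single probes rose from 14 to 2231, the pair of A_51_P387160 was called (-0.30 ± 0.076, adjusted p = 0.0389). At an unadjusted p it was the 1 of 4 pairs under 0.05, at 0.027. The pair of A_51_P387159 with A_52_P151211 gave 0.031 ± 0.11 (adjusted p = 0.858), so the probes of that accession did not give the same difference.

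With 1 array per genotype, a single region allows no test, and a difference was counted at 2-fold where both arrays were well above background. This left 1 value of 60, Homer1 A_51_P387159 in the amygdala pair, at -4.47 on the array labelled WT and -3.21 on KO. The difference of 1.26 had a spot error of 0.36 by the scanner software, and 6.17% of all probes passed 2-fold in that pair. The share was 0.899% in the olfactory bulb, 4.15% in the prefrontal cortex, 1.58% in the striatum, 1.86% in the hippocampus and 0.941% in the hypothalamus. With normexp it was 0.43. Bdnf A_51_P261991 in the striatum was at least 1.76-fold higher on KO than on WT by the floor, while A_52_P384100 was not well above background on either array. In the same pair, choroid plexus markers were higher on KO by a median of 1.51, with 3 of 9 well above background on WT and 8 of 9 on KO; their part in the Bdnf value was not tested. With normexp that Bdnf difference was 0.13 on the log2 scale, less than the floor bound, which holds for the processed signal only. Averaged over the 8 to 10 spots of A_51_P261991 kept per array, with errors of 0.066 to 0.072, KO minus WT of Bdnf was -0.34 in the olfactory bulb and in the hippocampus and 0.43 in the amygdala pair. The second Bdnf probe gave -0.23, 0.095 and 0.62 there. So the probes had the same sign in the olfactory bulb and the amygdala pair and opposite signs in the hippocampus. The authors' deposited table held a KO over WT ratio for 43 of these 60 values, of which 0 had the opposite sign, with a largest log2 difference of 0.11.

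The amygdala pair gave the highest KO minus WT value for 7 of the 10 probes, and the share among all probes was not counted. Across array probes the median absolute difference was 0.26 in this pair and 0.11 to 0.20 in the other regions. Set against the hypothalamus arrays, the array labelled amygdala WT differed by a median of 0.11 over the 10 probes, and amygdala KO by 0.60. Amygdala KO was above hypothalamus KO in 9 of 10 probes, by 0.50 for Arc, 0.58, 0.82 and 0.64 for Homer1, 0.39 and 0.63 for Bdnf, 0.33 for Nptx2 and 0.67 and 0.87 for Ptgs2, and Dusp1 was -0.038. The share of all probes with amygdala KO above hypothalamus KO was not counted either. Median scaling raises every value of this pair by 0.21 and of the prefrontal cortex pair by 0.12. On the WT side the same differences were 0.053 for Arc, -0.19 to -0.76 for Homer1, and at most 0.20 in size for the rest. In the amygdala pair hypothalamus markers differed by a median of -3.52, choroid plexus markers by -2.36, and cerebral cortex and hippocampus markers by 0.40 each. Region content of the arrays and genotype cannot be told apart in this pair.

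**Figure D4:**
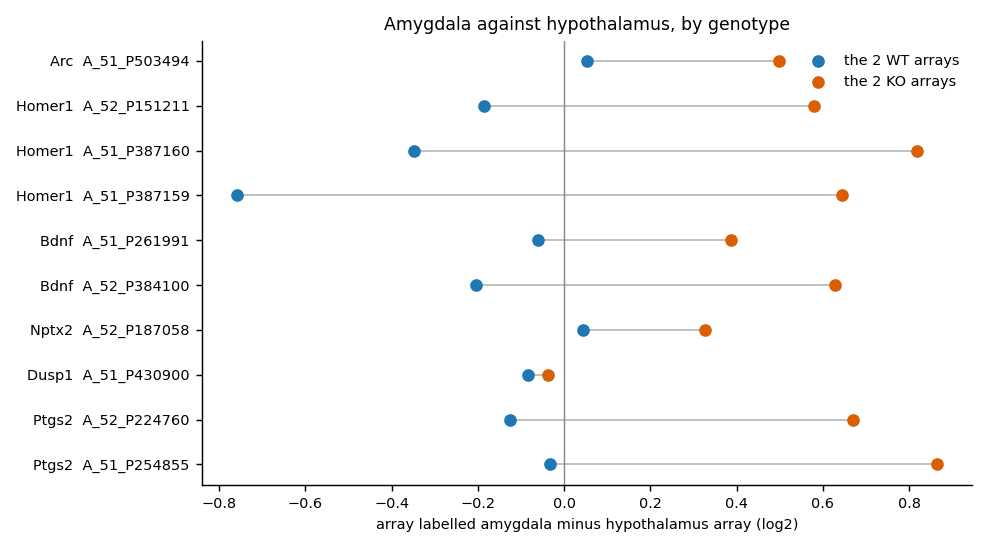
Difference between the array labelled amygdala and the hypothalamus array of the same genotype (horizontal axis, log2) for each probe, for the WT arrays in blue and the KO arrays in orange. In 9 of 10 probes the KO difference was above 0, up to 0.87, while the WT differences had a median size of 0.11.

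Other activity-induced genes were taken as lists. Of 16 measured immediate early transcription factors, 12 were lower and 4 higher in KO, with a median of -0.20 beside -0.0027 over all named genes. With median scaling 11 were lower, with a median of -0.14 beside 0.054. None was called with limma, and 8 had an unadjusted p under 0.05, 7 of them lower, beside 21.8% of all named genes. Fos, the partner of Jun in AP-1, had the smallest p, at -0.45 ± 0.069 (adjusted p = 0.0764, lower in 6 of 6 regions). Egr2 followed at -0.52 ± 0.097 (adjusted p = 0.0773) and the nuclear receptor Nr4a1 at -0.47 ± 0.099 (adjusted p = 0.0793), both lower in 6 of 6. Over all probes tested, 18.4% had 1 direction in 6 of 6 regions. Of 29 other effectors, 22 were lower in KO with a median of -0.078, and none was called with limma, while 8 had an unadjusted p under 0.05, 7 of them lower. With median scaling 17 of the 29 were lower, with a median of -0.022. Sik1, a kinase induced by cAMP, stood first at -0.31 ± 0.081 (adjusted p = 0.0951), before Arl4d (-0.25, adjusted p = 0.118) and Plk3 (-0.26, adjusted p = 0.121). Of the 6 genes at 1 probe each, Arc, Dusp1 and Ptgs2 were lower and Homer1, Bdnf and Nptx2 higher, none of them called. Among all 14062 named genes 7151 were lower, and 4992 with median scaling. The median of the transcription factors was below 0 in every region except the amygdala pair, where it was 0.032.

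**Figure D5:**
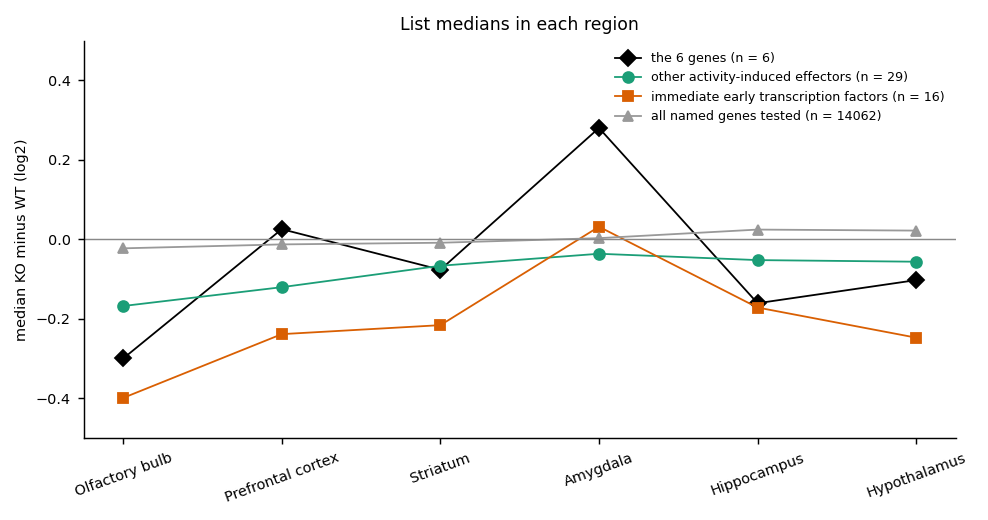
Median KO minus WT (vertical axis, log2) in each region for the 6 genes (1 probe each), 29 other activity-induced effectors, 16 immediate early transcription factors and all 14062 named genes tested. The transcription factors ran from -0.40 in the olfactory bulb to 0.032 in the amygdala pair, and all named genes stayed within 0.025 of 0.

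By region, 9 of 16 transcription factors were called higher in the olfactory bulb, the region where Arc was called higher, beside 6.48% of probes: Fos (2.45 ± 0.092, adjusted p = 6.3e-06), Atf3 (2.19), Npas4 (2.18), Egr2 (1.89), Ier2 (1.65), Nr4a1 (1.63), Btg2 (1.46), Fosl2 (1.33) and Egr1 (1.16). Of the 29 other effectors 5 were called higher there and 2 lower. In the hypothalamus, where Arc was lowest, Egr1 (-1.23), Egr3 (-1.25) and Nr4a1 (-1.47) were called lower, 3 of 16, beside 1.48%. In the hippocampus Jun was called higher and Egr2 and Fos lower, and in the prefrontal cortex Egr3 higher and Atf3 and Nr4a2 lower. Arc stood 0.74 and 0.83 above the mean of the others in these regions, under the size for a call. In the striatum Egr2, Egr4 and Nr4a1 were called higher and Btg2, Fosl2 and Jun lower, and in the amygdala Nr4a1 lower. Bdnf had company in the hippocampus, where the neurotrophin Ntf3 was called higher (3.14 ± 0.44, adjusted p = 0.00235). The Nptx2 relatives had wider maps than Nptx2 itself: Nptx1 was 2.20 higher in the hippocampus and differed by -3.09 in the striatum, and the receptor Nptxr by -2.96 in the striatum. Among MAP kinases and their phosphatases Dusp4 was called higher in the hippocampus (2.27) and Dusp3 in the striatum (2.24), regions where Dusp1 was not called. The prostaglandin E2 receptor Ptger3 was called higher in the prefrontal cortex (2.12) and lower in the hippocampus (-1.36), where Ptgs2 was highest. Homer2 was called lower in the striatum (-2.87), where the A_51_P387160 probe of Homer1 was high.

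Between genotypes, the lists around each gene had no called member with limma, and their counts at an unadjusted p under 0.05 stand beside 21.8% of all named genes. The Arc partners with the smallest p were Dlg4, also known as PSD-95 (0.28, adjusted p = 0.0934), Dnm3 (-0.41, adjusted p = 0.104) and Dnm2 (-0.16, adjusted p = 0.228), and 2 of 10 had an unadjusted p under 0.05. Among the 6 measured Homer family genes and scaffold partners, the calcium channel Ryr1 was at -0.32 (adjusted p = 0.0979) and Homer2 at 0.27 (adjusted p = 0.135), and 3 of 6 had an unadjusted p under 0.05. For the neurotrophin list that count was 1 of 11, with Pcsk7 first (-0.18, adjusted p = 0.128), then Ntf3 (0.66, adjusted p = 0.252) and Furin (-0.063, adjusted p = 0.445). For pentraxins and AMPA receptors it was 2 of 9, with Cacng8, an AMPA receptor auxiliary subunit (0.50, adjusted p = 0.0783), Gria1 (-0.15, adjusted p = 0.118) and Cacng3 (0.34, adjusted p = 0.22). For MAP kinases and their phosphatases it was 5 of 18, with Dusp3 (-0.57 ± 0.082, adjusted p = 0.0764), Ptpn5 (0.27, adjusted p = 0.101) and Mapk8 (0.21, adjusted p = 0.133). For prostaglandin synthesis and receptors it was 0 of 14, and Ptgis came first (-0.24, adjusted p = 0.298), then Ptgds (-0.27, adjusted p = 0.32) and Hpgds (0.23, adjusted p = 0.329). Of 10 activity-responsive transcription regulators 4 were under 0.05 unadjusted, among them Creb1 (-0.18, adjusted p = 0.138), Crtc2 (-0.26, adjusted p = 0.143) and Mef2c (-0.40, adjusted p = 0.15).

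The genes most like each member over the 12 arrays, by Pearson r with its brightest probe among 11840 genes well above background throughout, are given as a description. Arc was most like Lrp4, a receptor of the LDL receptor family (r = 0.971), then Gid4 (0.957) and Bcl11a, a transcription factor of projection neurons (0.954). For Homer1 A_52_P151211 these were the receptor tyrosine kinase Tyro3 (0.961), Lamp5 (0.943) and Ap4s1 (0.920). Bdnf A_51_P261991 ran with Tnfrsf21 (0.983), Slc35a5 (0.982) and Seh1l (0.977), in a ranking that includes its dim striatum WT reading. Nptx2 was like Id2 (0.955) and Elovl4 (0.945). Dusp1 ran with R3hdm1 (0.941), Nupr1 (0.929) and Anpep (0.928), and Ptgs2 A_52_P224760 with Mfap4 (0.987), Wapl (0.975) and Trim2 (0.973), with 9 of its 12 readings well above background. Among the 6 genes themselves, the highest r was 0.860, between Bdnf and Ptgs2, and the lowest was -0.535, between Bdnf and Dusp1. The arrays share regions pairwise, so these values carry 6 regions rather than 12 separate points.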

How the data were processed

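Spot intensity values were deposited as the authors' one-colour scans, read by Feature Extraction version 9.5.3.1 of Agilent (per the file headers), background-subtracted and not scaled between arrays. A ratio of KO over WT was also deposited by the authors and was used as a check. Here log2 of the processed signal minus the 75th percentile of each array's 43379 gene spots was taken, outlier-flagged spots were left out and the spots of a probe were averaged. Probes counted as well above background by the software's flag on at least 0.5 of their spots. Accessions were matched without versions to RefSeq names of GRCm38.p6, which named 22951 of 41174 probes. Models were fitted over all probes with limma 3.58.1 in R 4.3.3 and adjusted by Benjamini-Hochberg. A region's only replicates were its KO and WT array, and their number limits the precision. The normexp alternative (offset 50) used the median spot signal, since the files used here held no mean signal. The fit was tested on simulated data. Genes named are all 6 members, the 3 genes most like each, the 3 genes of smallest p in each pathway list, and Il18; the genes named by region were picked from the lists with their values in view. Some genes that the rule names are not reported here. Members and lists were chosen with earlier results of these data known.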

Additional observations from a re-analysis of the deposited data

Results flagged for a closer look

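Of 10 probes, 1 had a region that stood apart from the others in KO minus WT: Bdnf A_51_P261991 in the striatum, at 1.75 on the log2 scale. Its gap to the next region was 0.629 of the whole range over 6 regions, just above Dixon's 95% critical value, which chance alone passes in about 1 of 20 such groups. The WT reading behind it was not well above background on any of 10 spots. By the floor, the difference in processed signal is at least 1.76-fold, and no more can be said of its size. With normexp the difference was 0.13 on the log2 scale, less than that bound, so the bound does not hold across background corrections. The other Bdnf probe read -0.35 with neither array well above background.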

How the results depend on the processing

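No paired analysis by replicate number was possible because the labels carry none; region is the block of the genotype fit, and with no region block 2 probes were called in place of 14. That count was 2231 with normexp, 810 over probes well above background on all 12 arrays, 960 with trend and robust variance, and 1 to 10 leaving out 1 region in turn, where fewer arrays enter the fit. None of the 10 probes was called under any of these settings. Of 60 regional comparisons of the members, 19 were called, against 9 with normexp, 4 over probes well above background on all arrays and 11 with 1 probe per gene; the last 2 settings test fewer probes. Of all probe pairs, 657 were called between genotypes and 3 to 641 leaving out 1 region. The 1 regional pair call, Bdnf, went to 0 with normexp, without the array labelled amygdala WT and without both amygdala arrays, and the 1 Homer1 pair between genotypes was called with normexp. The 1 value past 2-fold within a region went to 0 with normexp, a setting chosen after the data were seen.

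KO minus WT near 0 changed sign in a few settings, and the cause was not tested. With normexp, Homer1 A_51_P387160 was -0.039, Bdnf A_51_P261991 -0.018, the Bdnf pair 0.035 and the A_51_P387159 pair of Homer1 -0.18. With quantile normalization Ptgs2 A_51_P254855 was 0.047. Leaving out 1 region, values ran from -0.11 to 0.13 for Homer1 A_51_P387160, -0.061 to 0.36 for Bdnf A_51_P261991, -0.097 to 0.097 for Bdnf A_52_P384100, -0.044 to 0.098 for Nptx2 and -0.25 to 0.043 for Ptgs2 A_51_P254855. They ran from -0.35 to 0.16 for the Bdnf pair and -0.071 to 0.098 for that Homer1 pair. With normexp the striatum against the others gave 0.51 and 0.34 for Ptgs2 A_51_P254855 and A_52_P224760, and olfactory bulb against striatum gave -0.88 for the latter. In all, 146 of 162 genotype values kept direction and side of the threshold, and 213 of 240 regional ones. Signals near background limit Ptgs2 outside the hippocampus and prefrontal cortex and Bdnf in the striatum.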
